A study of Mus musculus with 9 samples.

Results

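The Notch ligand genes Dll1, Dll3, Dll4, Jag1 and Jag2, the receptor genes Notch1, Notch2, Notch3 and Notch4, and Hes1, a target gene of the pathway, were followed through 9 cell lines of the mouse mammary carcinoma 4T1. The 10 genes were listed by name, and all 10 were found among 19938 genes measured on each array. Where a gene had several probe sets, the one with the highest mean over the 9 arrays was to stand for it, but each of these genes had only 1 probe set carrying its symbol alone, so that choice changed nothing here. The members were chosen by name with log2 differences between origins from these same arrays in view. Dll4 was already known from an earlier analysis of the same arrays to be low in brain lines when the family was chosen, so its difference describes these lines and is not independent support.

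The lines came from 3 brain metastases (4T1-BM2), 3 lung metastases (4T1-LM2) and 3 primary tumors (4T1-T2). They are called brain, lung and primary lines here. Within each origin the labels number the mice 1 to 3, and the lines take these numbers. All are untreated derivatives of the 4T1 parent, with no engineered allele named in the labels, and the strain and age of the mice are not given there. The lines of an origin share 1 name, and the labels do not say whether that name marks a common selected ancestor, in which case the 3 lines would count as fewer independent samples. RNA was taken from lines thawed, cultured and extracted in parallel, so the values are those of cells in a dish, away from the host cells of brain, lung or mammary gland. The labels place 1 line on each array, without repeats.

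Notch signaling passes between touching cells. A ligand of the Delta-like or Jagged type on one cell pulls on a Notch receptor on its neighbour, and proteases, ending with gamma-secretase, then release the receptor's intracellular part, which joins the DNA-binding protein RBPJ and a Mastermind coactivator to switch on genes such as Hes1. In the mammary epithelium the pathway takes part in the choice of luminal fate, and in vessels Dll4 is known as the ligand of sprouting endothelial tip cells.

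The promoter windows of the 3 members with the largest differences between brain and other lines are shown because the levels below concern these genes. Each holds 250 bases before and 50 bases after the transcript start, is taken from RefSeq (build GRCm38.p6) and reads 5′ to 3′ on the strand of the gene, and the capitals mark the class C site CACGCG, bound by Hes repressors, on either strand. The Dll4 window lies at chr2:119325534-119325833 on the plus strand, the Notch2 window at chr3:98013288-98013587 on the plus strand and the Jag1 window at chr2:137116471-137116770 on the minus strand.
Dll4: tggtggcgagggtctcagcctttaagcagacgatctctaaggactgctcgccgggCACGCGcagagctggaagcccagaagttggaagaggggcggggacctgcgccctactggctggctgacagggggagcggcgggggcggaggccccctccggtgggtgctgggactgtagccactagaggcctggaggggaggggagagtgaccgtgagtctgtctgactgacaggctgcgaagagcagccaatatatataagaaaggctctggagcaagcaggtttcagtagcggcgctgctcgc
Notch2: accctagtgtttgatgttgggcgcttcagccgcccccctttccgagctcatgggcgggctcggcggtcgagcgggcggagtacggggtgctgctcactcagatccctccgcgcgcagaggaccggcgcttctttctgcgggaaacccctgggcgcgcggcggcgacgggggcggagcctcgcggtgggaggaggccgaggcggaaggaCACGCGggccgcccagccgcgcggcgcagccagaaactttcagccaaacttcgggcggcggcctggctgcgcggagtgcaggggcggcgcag
Jag1: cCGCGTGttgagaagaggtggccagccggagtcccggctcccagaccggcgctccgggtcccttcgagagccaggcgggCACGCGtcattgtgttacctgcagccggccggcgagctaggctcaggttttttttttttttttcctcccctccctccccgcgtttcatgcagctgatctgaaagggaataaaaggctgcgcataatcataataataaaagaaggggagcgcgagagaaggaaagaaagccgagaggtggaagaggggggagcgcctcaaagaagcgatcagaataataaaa

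The site starts at position -195 relative to the transcript start in Dll4, at -42 in Notch2, and at -171 and, on the opposite strand, -249 in Jag1. RefSeq promoter windows were matched for 9 of the 10 members, all but Hes1, and Dll1 had a second window. The class C site occurred in 5 of the 9 members, the other 2 being Dll1 and Jag2, against 9.27% of 32851 windows of the same length. The first count is by gene and the share is by window, and Dll1 held the site only in its second window. The windows held 17 CpG in Dll4, 41 in Notch2 and 22 in Jag1, and the members' windows ranged from 5 in Notch4 to 63 in Jag2, where the median of all windows was 7. The class C site itself contains CpG, and the part of CpG content in its frequency here was not tested. The RBPJ core TGGGAA, held by 25.6% of all windows, and the E-box CACGTG, held by 7.15%, were searched on both strands and matched in none of the members' windows, which says only that these letters are not there.

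Values are log2 intensities made by the authors with RMA, in which a difference of 1 is a doubling. They are compared for the same gene between lines and not between genes, since probe sets differ in brightness. The medians of the 9 arrays lay between 5.06 and 5.19, precision is limited by having 3 arrays per origin, and the median of probe sets with no gene symbol, 4.18, served as a mark of dim signal. A gene was called when its limma p, adjusted by Benjamini-Hochberg over all 19938 genes, was under 0.05. Errors after ± are SD of 3 lines or, where marked SE, the standard error of the model.

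Among the ligands, Dll4 was much lower in brain lines than in either other origin. Its log2 level was 5.20, 5.54 and 5.65 in brain lines 1 to 3, 7.11, 7.33 and 7.13 in lung lines 1 to 3, and 7.22, 8.03 and 7.29 in primary lines 1 to 3. Every brain line lay below every other line, by at least the distance between 5.65 and 7.11, while lung and primary lines overlapped. The means were 5.46 ± 0.24 in brain, 7.19 ± 0.12 in lung and 7.51 ± 0.45 in primary lines, all above the 4.18 mark. Dll4 was 4.14-fold lower in brain than in primary lines (log2 change -2.05 ± 0.20, SE, 95% interval -2.50 to -1.60, limma adjusted p = 0.00158) and 3.31-fold lower in brain than in lung lines (-1.73 ± 0.20, SE, 95% interval -2.18 to -1.28, limma adjusted p = 0.00584). Only 4 of 19938 genes had a larger fall in brain against primary lines and 9 in brain against lung lines. The 2 comparisons share the brain lines. In lung against primary lines the log2 change of Dll4 was -0.32 ± 0.20 (SE, 95% interval -0.77 to 0.13, limma adjusted p = 0.975). Dll4 kept its call without any 1 of the 9 lines in both comparisons with brain lines, with log2 changes of -2.20 to -1.79 against primary and -1.82 to -1.59 against lung lines. Without moderation of the variances by limma it lost the call (adjusted p = 0.0554 against primary and 0.0892 against lung lines), and this setting called 51 and 3 genes in all. In RNA from a whole culture, fewer cells that express Dll4 and less Dll4 RNA per cell cannot be told apart.

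Jag1, the ligand whose loss causes Alagille syndrome in people, varied most within an origin. It stood at 8.14, 8.42 and 9.08 in brain lines, 7.53, 8.07 and 7.97 in lung lines, and 8.24, 8.20 and 7.23 in primary lines. Brain line 3 was the highest and primary line 3 the lowest of all, the brain lines lay above all lung lines, and brain and primary lines overlapped. The log2 change was 0.66 ± 0.30 in brain against primary lines (SE, 95% interval -0.02 to 1.33, limma adjusted p = 0.336) and 0.69 ± 0.30 in brain against lung lines (SE, 95% interval 0.01 to 1.37, limma adjusted p = 0.323), so neither passed. The pooled SD within origins was 0.464 for Jag1, exceeded by 0.522% of all genes, against 0.300 for Dll4 and a median of 0.120 over all genes.

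The other 3 ligands showed no difference between origins beyond the spread of the lines. Dll1, a Delta-like ligand needed for somite formation, was at 6.91, 6.98 and 7.01 in brain lines, 6.57, 7.02 and 6.97 in lung lines, and 6.79, 7.31 and 6.83 in primary lines. Jag2, the second Jagged ligand, was at 7.11, 7.55 and 7.43 in brain lines, 7.05, 7.48 and 7.26 in lung lines, and 7.12, 7.53 and 7.31 in primary lines. In both genes all 3 origins overlapped, and in Jag2 line 1 of each origin was the lowest of its group. The 95% interval of brain against primary lines ran from -0.35 to 0.33 for Dll1 and from -0.29 to 0.38 for Jag2. Dll3, a ligand known to inhibit Notch within its own cell, lay between 4.34 and 4.76 in all 9 lines, close to the 4.18 mark. Its origins overlapped, with means of 4.53 ± 0.13 in brain, 4.55 ± 0.21 in lung and 4.56 ± 0.03 in primary lines.

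**Figure D1:**
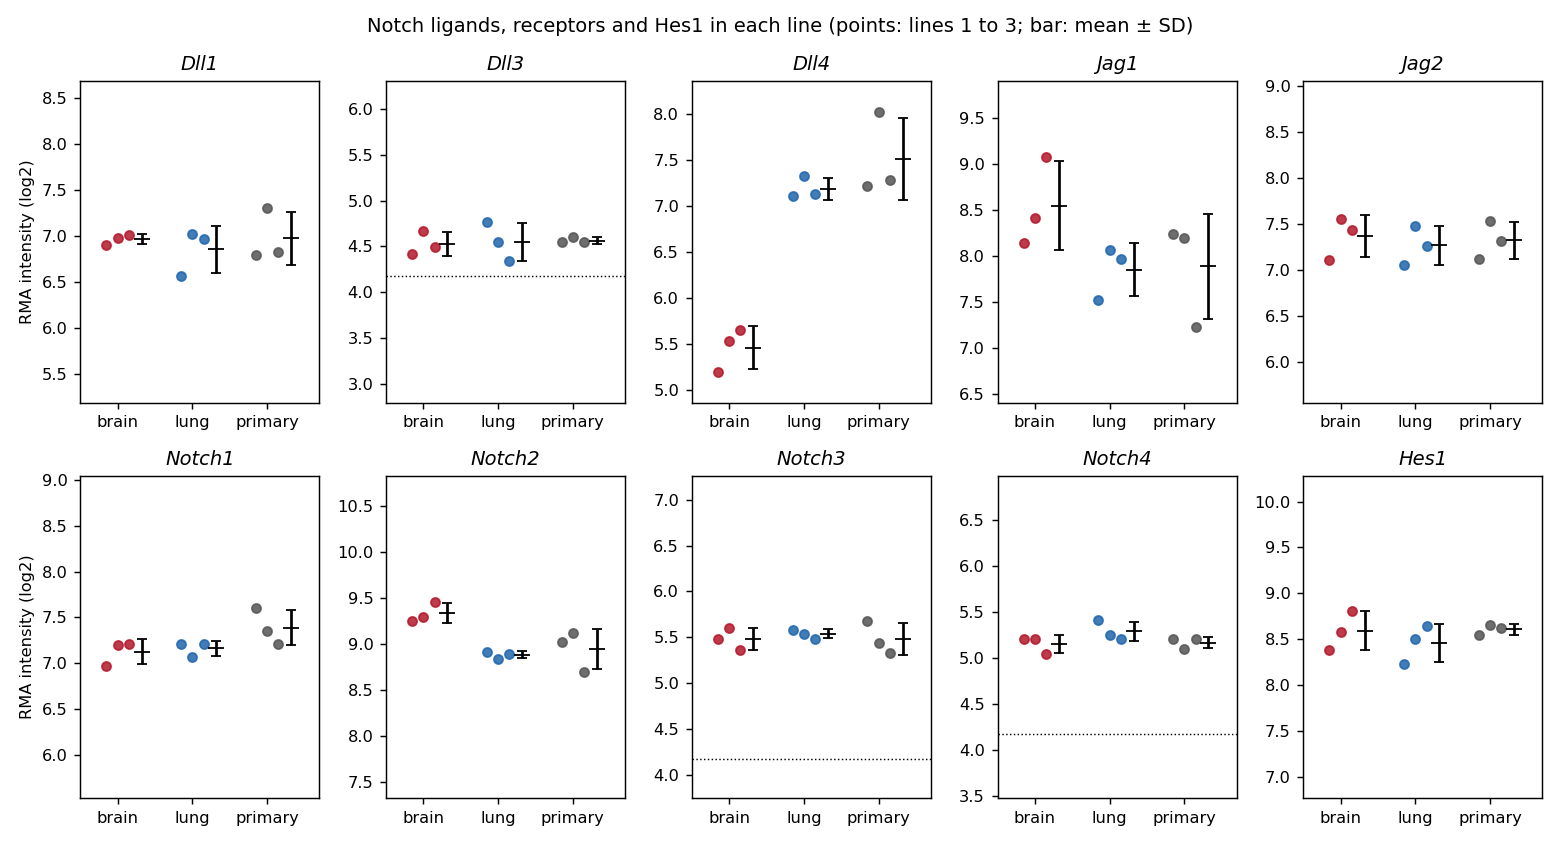
Log2 RMA intensity of each member in the 9 lines, with points for lines 1 to 3 of each origin in order, a bar for the mean ± SD of 3 lines, axes of equal span centred on each gene and a dotted line at 4.18, the median of probe sets with no symbol, where it falls in range. The brain lines sit apart in Dll4 (5.20 to 5.65, against 7.11 to 8.03 in the other lines) and, by less, in Notch2 (9.25 to 9.46, against 8.70 to 9.12).

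Of the receptors, Notch2 showed the clearest pattern, higher in every brain line than in every other line, without passing the test. It stood at 9.25, 9.29 and 9.46 in brain lines, 8.92, 8.84 and 8.89 in lung lines, and 9.03, 9.12 and 8.70 in primary lines. The gap between the lowest brain line and primary line 2 was the distance between 9.25 and 9.12, and lung and primary lines overlapped. The log2 change was 0.39 ± 0.11 in brain against primary lines (SE, 95% interval 0.15 to 0.63, limma adjusted p = 0.0946) and 0.45 ± 0.11 in brain against lung lines (SE, 95% interval 0.21 to 0.69, limma adjusted p = 0.0711). Only without primary line 3 did Notch2 pass in brain against lung lines (limma adjusted p = 0.0258), and over the other alternatives the adjusted p of that comparison lay between 0.0514 and 0.219.

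Notch1, a receptor with broad known roles in development, did not pass in any comparison. It stood at 6.97, 7.20 and 7.22 in brain lines, 7.21, 7.07 and 7.21 in lung lines, and 7.60, 7.36 and 7.22 in primary lines. Brain and lung lines overlapped, the lung lines lay below all primary lines by a margin under the spread of either group, and brain line 3 and primary line 3 had the same value. The log2 change was -0.26 ± 0.11 in brain against primary lines (SE, 95% interval -0.50 to -0.02, limma adjusted p = 0.271) and -0.23 ± 0.11 in lung against primary lines (SE, 95% interval -0.47 to 0.01, limma adjusted p = 0.975).

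Notch3, a receptor of vascular smooth muscle and pericytes, lay between 5.33 and 5.68 in the 9 lines, with means of 5.48 ± 0.12 in brain, 5.54 ± 0.05 in lung and 5.48 ± 0.18 in primary lines. Notch4, known mainly from endothelium and as the site of mouse mammary tumor virus insertions, averaged 5.16 ± 0.09 in brain, 5.29 ± 0.11 in lung and 5.17 ± 0.06 in primary lines. For both receptors the origins overlapped, and the 95% interval of brain against primary lines was -0.22 to 0.22 for Notch3 and -0.20 to 0.16 for Notch4. In Notch4 the same value, 5.21, was given for 5 of the 9 lines, and 6 further probe sets annotated to both Notch4 and another gene were not used.

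Hes1, a repressor of the basic helix-loop-helix type that rises when Notch is active, did not follow Dll4. It stood at 8.39, 8.58 and 8.81 in brain lines, 8.24, 8.50 and 8.65 in lung lines, and 8.54, 8.65 and 8.63 in primary lines. The 3 origins overlapped, and brain lines held both the highest level and, after lung line 1, the lowest. The log2 change in brain against primary lines was -0.02 ± 0.13 (SE, 95% interval -0.30 to 0.26, limma adjusted p = 0.977) and in brain against lung lines 0.13 ± 0.13 (SE, 95% interval -0.15 to 0.41, limma adjusted p = 0.708).

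In all, 1 of the 10 members, Dll4, was called in brain against primary lines, where 3.13% of all genes were called, and again 1, Dll4, in brain against lung lines, where 1.98% were. Dll4 was called as lower, like 1.57% and 1.07% of all genes in the same 2 comparisons, and 0 members were called as higher, against 1.56% and 0.913% of all genes. At an unadjusted limma p under 0.05 stood 3 members in brain against primary lines (Dll4, Notch1 and Notch2, where 15.8% of all genes did) and 3 in brain against lung lines (Dll4, Jag1 and Notch2, where 14.9% did). These counts rest on the gene for which the family was chosen, and the other 9 members did not pass. In lung against primary lines limma called 0 of the 10 and 0% of all genes, with 4.74% of all genes at an unadjusted p under 0.05 and none of the members among them. The F test over the 3 origins called 1 member, Dll4 (limma adjusted p = 0.0032), against 2.36% of all genes. The members' groups did not overlap in 2 genes in brain against primary lines (17.8% of all genes), 3 in brain against lung lines (16.9%) and 1 in lung against primary lines (8.71%). The median log2 change of the 10 members was -0.01 for brain against primary lines, 0.04 for brain against lung lines and -0.06 for lung against primary lines, beside 0.0049, -0.0096 and 0.013 for all genes.

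**Figure D2:**
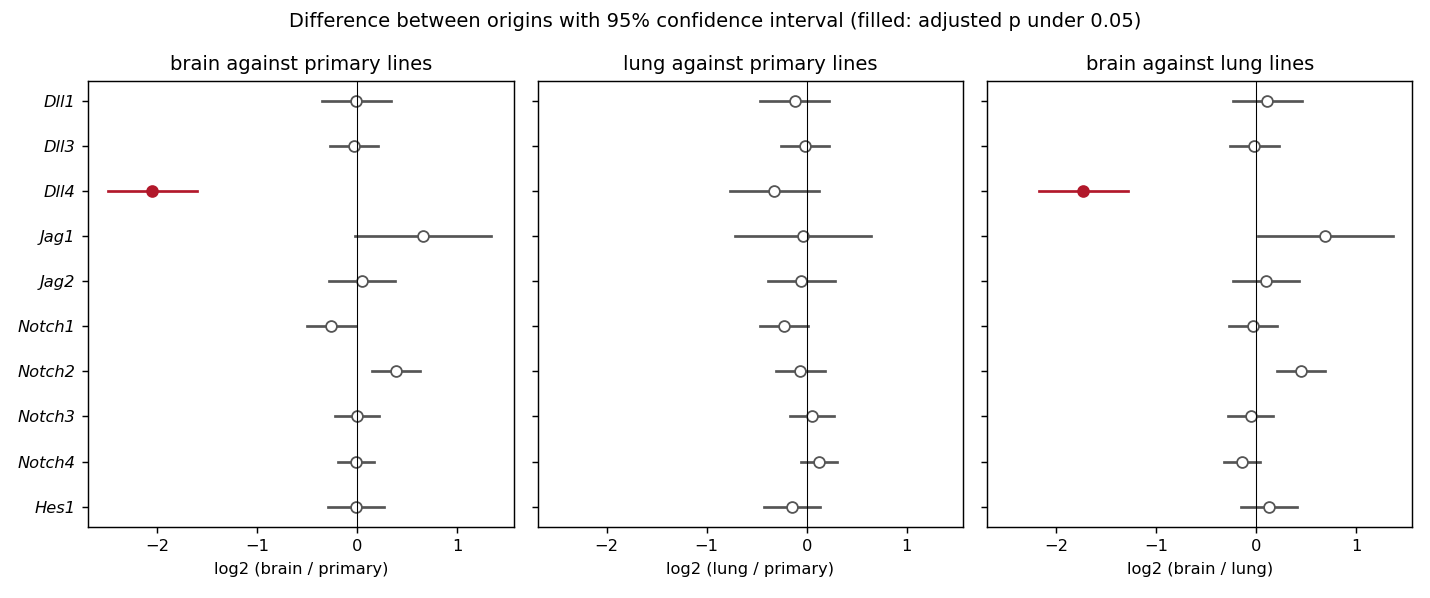
Log2 difference between origins of the 10 members (points) with its 95% confidence interval (lines), for each pair of origins, filled where the limma adjusted p over all genes was under 0.05. Dll4 lies at -2.05 and -1.73 in the comparisons with brain lines, the other 9 members lie between -0.26 and 0.69, and Jag1 has the widest intervals.

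The members differed in how much of their variation lay between origins. Origin held 93.1% of the sum of squares over the 9 lines in Dll4, 74.1% in Notch2, 49.0% in Notch1, 41.3% in Jag1 and 40.5% in Notch4, and between 1.36% and 17.5% in the other 5, where the median of all genes was 27.8%. The SD over the 9 lines was 0.989 in Dll4, a value that 19 of 19938 genes exceeded, and 0.525 in Jag1, while the other members lay between 0.101 and 0.246 around the all-gene median of 0.130. Across the 9 lines, as a description, Dll4 correlated with Notch2 at -0.72 and with Jag1 at -0.50, with Notch1 at 0.48 and with Hes1 at 0.00 (Pearson, 9 lines). The points share 3 origins, so each value mixes differences between origins with those within them.

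The rest of the pathway was read from a list of 64 genes, of which 61 were measured and the others are not analysed here. In brain against primary lines 1 rose, 1 fell and 59 did not pass, or 3.28% called where 3.13% of all genes were. In brain against lung lines 1 rose, 0 fell and 60 did not pass, or 1.64% called where 1.98% of all genes were. Both shares are near those of all genes, and the median log2 change of the list was -0.02 and -0.03.

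Fbxw7, the ubiquitin ligase subunit that marks the Notch intracellular domain, and also cyclin E and Myc, for destruction, was the gene that rose. It stood at 6.66, 6.74 and 6.67 in brain lines, 6.20, 6.40 and 6.23 in lung lines, and 6.34, 6.38 and 6.34 in primary lines, so that every brain line lay above all others. It was 1.27-fold higher in brain than in primary lines (log2 change 0.34 ± 0.07, SE, limma adjusted p = 0.0342) and 1.33-fold higher in brain than in lung lines (0.42 ± 0.07, SE, limma adjusted p = 0.0215). The call against primary lines was lost without any 1 of brain lines 1, 2 and 3, lung line 3 and primary lines 1, 2 and 3 (limma adjusted p = 0.0548 to 0.102) and in 5 of the 9 other alternatives (0.0508 to 0.0798). The call against lung lines was lost without brain line 2 or 3 or lung line 1 or 3 (0.0523 to 0.0750) and in 3 of the 9 other alternatives (0.0658 to 0.0821).

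Sox9, a transcription factor of mammary stem and progenitor cells that Notch is known to induce in several tissues, was the gene that fell. It stood at 9.11, 9.07 and 9.06 in brain lines, 9.37, 9.40 and 9.25 in lung lines, and 9.57, 9.58 and 9.55 in primary lines. The 3 origins did not overlap, with lung lines between the others. Sox9 was 1.40-fold lower in brain than in primary lines (log2 change -0.49 ± 0.06, SE, limma adjusted p = 0.00518), a call kept without any 1 line. In brain against lung lines the log2 change was -0.26 ± 0.06 (SE, limma adjusted p = 0.0814).

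Beyond these, the gene with the smallest F test p in each role did not pass in either comparison with brain lines. Among the E3 ligases and epsins that drive ligand endocytosis, Neurl1b stood at 7.08, 7.25 and 7.09 in brain lines and 7.61, 7.85 and 7.81 in lung lines, without overlap. In primary lines Neurl1b stood at 7.46, 7.68 and 7.04, overlapping the brain lines. Its log2 change in brain against lung lines was -0.62 ± 0.15 (SE, limma adjusted p = 0.0678). With the mouse number as a block, Neurl1b passed (limma adjusted p = 0.0402), and the count of pathway genes called was 2. The mice are separate animals, and the only ground for this block is correlation between these same arrays. The call made with it is therefore not independent support for a difference in Neurl1b. Aph1a, a subunit of gamma-secretase, had a log2 change of 0.32 ± 0.09 in brain against primary lines (SE, limma adjusted p = 0.0823). Poglut1, which adds O-glucose to Notch, had 0.18 ± 0.07 in brain against lung lines, and the coactivator gene Maml3 had -0.25 ± 0.10 and the corepressor gene Cir1 -0.30 ± 0.11 in brain against primary lines (SE). Among the unusual ligands Dner, with a mean of 4.12 in brain and 4.18 in primary lines, lay at the mark of dim signal.

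The Hes and Hey family genes, relatives of Hes1 listed here as targets, did not pass in any comparison. Of the 8, 2 had a positive log2 change in brain against primary lines, where 10312 of 19938 genes had one. In brain against lung lines 0 did, where 9315 of all genes had one. Their median was -0.03 and -0.10, and the signs were not tested as a set. Hey2, with a mean of 3.34, lay below the mark of dim signal. Lung line 1 was the highest of all lines in Hes5 (7.54) and Heyl (5.20). The other lung lines stood at 7.03 and 6.88 in Hes5, beside a brain mean of 7.13. In Heyl they stood at 4.72 and 4.72, still above all brain lines. Hes6, which had the smallest F test p, stood at 6.87, 6.89 and 7.01 in brain lines and 7.04, 7.18 and 7.44 in primary lines, without overlap (log2 change -0.29 ± 0.11, SE, limma adjusted p = 0.218). Of 5 other targets measured, Nrarp, Myc, Ccnd1, Gata3 and Sox9, only Sox9 passed. Brain lines did not overlap with primary lines in 4 of the 5 (17.8% of all genes) or with lung lines in 4 (16.9%), in both directions. Myc, a growth regulator, had a log2 change of 0.35 ± 0.12 against primary and 0.37 ± 0.12 against lung lines (SE, limma adjusted p = 0.156 and 0.158). Gata3, a factor of luminal fate, had -0.38 ± 0.09 and -0.22 ± 0.09 (SE, limma adjusted p = 0.0544 and 0.298). Nrarp, a direct target that limits Notch signaling, was picked after its values were seen. It stood at 8.41, 8.66 and 8.45 in brain lines, 8.77, 8.97 and 8.99 in lung lines, and 8.77, 8.73 and 9.16 in primary lines, so every brain line lay below all others. Its log2 change was -0.38 ± 0.12 in brain against primary lines (SE, limma adjusted p = 0.147) and -0.40 ± 0.12 in brain against lung lines (SE, limma adjusted p = 0.146), and neither passed.

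**Figure D3:**
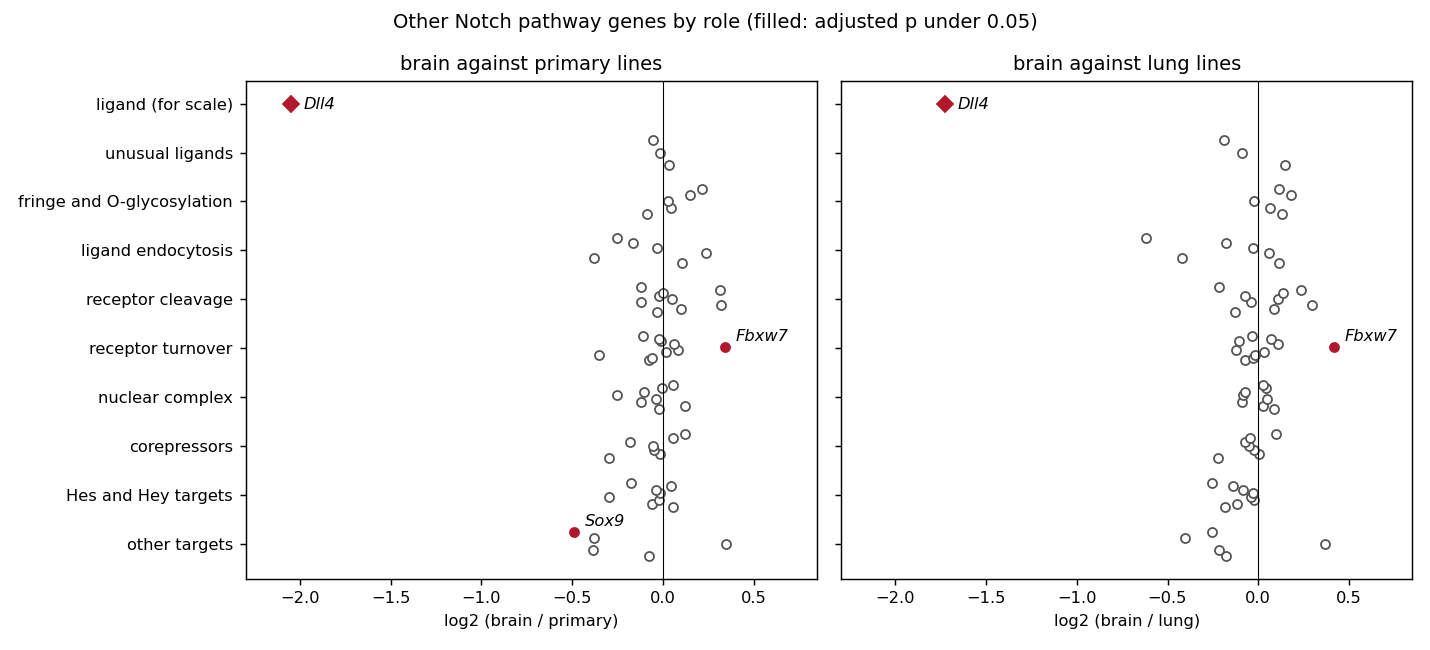
Log2 difference of the 61 other Notch pathway genes (circles) by role, in brain against primary lines (left) and brain against lung lines (right), filled and named where the limma adjusted p was under 0.05, with Dll4 as a diamond for scale. Fbxw7 (0.34 and 0.42) and, in the left panel, Sox9 (-0.49) are called, while Dll4 lies at -2.05 and -1.73.

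Markers of cell types that could be present were read beside the members. Of 14 endothelial genes, 6 had a mean under the 4.18 mark, none was called in any comparison, and their summed linear intensity was 386 to 417 in brain, 405 to 446 in lung and 387 to 399 in primary lines. The defining genes Cdh5, Kdr and Erg averaged 4.16, 4.09 and 4.10 over the 9 lines. The 8 endothelial genes above the mark ran from 4.19 in Pecam1 to 6.67 in Egfl7, with Sox18 at 5.63, Cldn5 at 5.37 and Vwf at 5.14. No leukocyte, fibroblast, brain or lung epithelial marker was called either, and the fibroblast and pericyte sum was 380 to 396 in brain, 427 to 444 in lung and 432 to 655 in primary lines. Of the 8 fibroblast and pericyte genes, 4 had a mean under the mark. Pdgfra, Col1a1 and Col1a2 averaged 7.47, 6.26 and 6.32 over the 9 lines. Acta2 stood at 7.43 in primary line 2 and between 5.21 and 6.03 in the other lines. Of the 10 mammary epithelial markers, 3 rose in brain against primary lines, 1 rose in brain against lung lines, and the others did not pass. Their summed intensity was 21723 to 24743 in brain, 19622 to 20965 in lung and 17457 to 20466 in primary lines. Krt8, a luminal keratin and the brightest of them, averaged 12.78 in brain, 12.93 in lung and 12.87 in primary lines. Of the basal keratins, Krt5 averaged 4.40 in brain, 4.38 in lung and 4.23 in primary lines, near the 4.18 mark, and was not called. Krt14, a basal keratin, stood at 7.71, 8.23 and 8.24 in brain lines, 5.87, 6.20 and 6.59 in lung lines, and 6.80, 6.33 and 6.19 in primary lines, and rose by 1.62 ± 0.22 against primary and 1.84 ± 0.22 against lung lines on the log2 scale (SE, limma adjusted p = 0.00568 and 0.00631). Krt19 and Cdh1 also rose against primary lines, by 1.27 ± 0.25 and 0.90 ± 0.19 (SE, limma adjusted p = 0.0262 and 0.0386), calls that were lost in 5 and 8 of the 9 fits that left out a line. The part of these epithelial differences in the levels of Dll4 was not tested.

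Genes on either side of Dll4 were set beside it, in the order of the reference annotation and chosen after the fall of Dll4 was known. Over the 20 nearest measured genes, 10 on each side, the median log2 change was -0.06 in brain against primary and -0.15 in brain against lung lines, with ranges of -0.67 to 0.33 and -0.53 to 0.19. None came near the values of Dll4. The lowest against primary lines was the next gene, Chac1, which encodes an enzyme that breaks down glutathione (log2 change -0.67, limma adjusted p = 0.0855), and 1 neighbour, Rmdn3, was called, as higher (0.33, limma adjusted p = 0.0302). Around Notch2 the same medians were 0.09 and 0.03. Of its 20 neighbours 0 were called by limma in either comparison, and Pde4dip (0.53 and 0.50) and Chd1l (0.45 and 0.34), both within the 10 genes before it, had log2 changes close to the 0.39 and 0.45 of Notch2 itself.

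**Figure D4:**
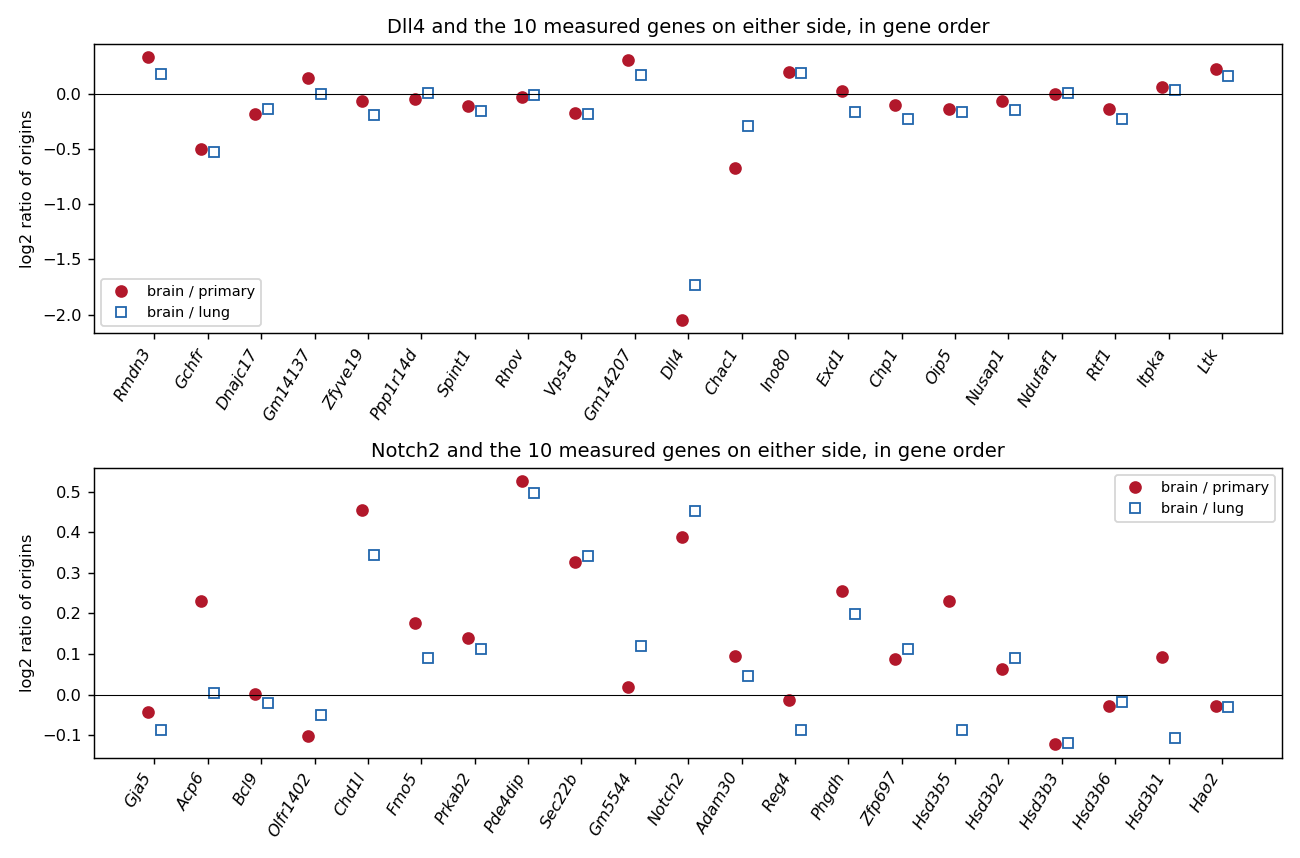
Log2 ratio of brain over primary lines (filled circles) and brain over lung lines (open squares) for Dll4 (top) and Notch2 (bottom) and the 10 measured genes on either side of each, in gene order and on separate axes. Dll4 lies alone at -2.05 and -1.73 among neighbours between -0.67 and 0.33, whereas Pde4dip (0.53 and 0.50) lies above Notch2 (0.39 and 0.45) in both ratios.

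The genes whose pattern over the 9 lines was most like that of Dll4, among 14305 with a mean above the dim mark, were Eps8 (Pearson r = 0.984), Xab2 (0.980), Ap3s1 (0.978), Map1lc3b (0.978) and Champ1 (0.977). The most opposed were Bst1 (-0.986), Podnl1 (-0.979) and Krt36 (-0.973). Eps8, an adaptor of receptor tyrosine kinase signaling, averaged 9.80 ± 0.07 in brain, 10.15 ± 0.03 in lung and 10.21 ± 0.04 in primary lines, a far smaller step than that of Dll4. Podnl1, a small leucine-rich proteoglycan, averaged 9.25 ± 0.07 in brain, 7.24 ± 0.22 in lung and 7.21 ± 0.38 in primary lines, a step of similar size in the opposite direction. These correlations are over 9 lines in 3 groups and are given as a description.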

How the data were processed

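RNA of 9 cell lines was measured on 9 mouse gene arrays, 1 per line. Per the submitters' processing notes, the authors used RMA, and the deposited values are log2 intensities per probe set. The log base was taken from their range. The RMA version is not given in the sources used here, nor is a build. Of 35557 probe sets, 21789 had 1 gene symbol in the platform annotation, 1621 several and 12147 none. Genes were named from the first kind, with the probe set of highest mean where a gene had several (999 genes), which left 19938. The members and lists were chosen with earlier results of these data known.

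Origins were compared with limma (version 3.58.1, R 4.3.3, lmFit and eBayes, two-sided) in 1 model of 9 arrays with 6 residual and 3.72 prior degrees of freedom, adjusted over all genes, and the fit was checked on simulated data. With 3 lines a side, the smallest p of an exact permutation test is 0.1. All 10 members were described. Of 64 other pathway genes, those called in a contrast were named, and in each role without a call the gene with the smallest F test p. Hes5, Hey2, Heyl, Nrarp, Myc, Ccnd1 and Gata3 were named outside this rule. Other uncalled genes were left out, among them Dtx3 and Psen2 (limma adjusted p = 0.0740 and 0.0837 in brain against primary lines). RefSeq tables (GRCm38.p6) gave promoters and gene order.

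Between brain and lung lines, the deviations from the group mean of lines with the same mouse number correlated at 0.284, 0.130 and 0.241. There the replicate block on that number is given where a call changes. This pairing is read from the arrays, as the mice are separate animals, so a call made with the block is not independent of that choice. The alternatives were another quantile normalization, median centring, array weights, an intensity trend (robust prior), dropping the dimmest 33.3% of genes, the block, every probe set, only the 6 arrays compared, no moderation and leaving out each line.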

Additional observations from a re-analysis of the deposited data

How the results depend on the processing

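The call of Dll4 in both comparisons with brain lines held in the 9 fits that left out a line and in 8 of the other 9 alternatives, and its direction in all of them. Without moderation of the variances 0 members were called in either comparison or in the F test, and the genes called were 51 in brain against primary, 3 in brain against lung and 1 in lung against primary lines. With a line left out, 1 to 2 members were called in brain against lung lines and in the F test, the second being Notch2. The genes called were 624 in brain against primary lines, 273 to 556 with a line left out, 246 when all probe sets were kept and 197 from the 6 arrays alone. In brain against lung lines they were 395, then 69 to 417, 92 and 107. The count moved by over 1.5 times without brain line 2 or 3 or any primary line in the first comparison, and without brain line 2 or 3 or any lung line in the second, lowest without primary line 2 (273) and lung line 2 (69). Other pathway genes called in brain against primary lines were 4 with array weights and 1 with median centring, every probe set, the 6 arrays or no moderation, and 1 to 2 with a line left out. In brain against lung lines they were 2 with array weights, the replicate block, quantile normalization again or without the dimmest genes, 0 with every probe set, the 6 arrays or no moderation, and 0 to 2 with a line left out. The replicate block changed no other call of a member or of Fbxw7 or Sox9. It was fitted on all 9 arrays, so it grouped the primary lines by number too. Deviations of same-number lines correlated at 0.067, -0.00074 and -0.044 between brain and primary lines. Between lung and primary lines they correlated at 0.221, 0.079 and 0.0080. The causes of these shifts were not tested.

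The sign turned under at least 1 alternative in 17 of the members' 30 comparisons, and these 17 had not passed in limma. With median centring the log2 change in brain against primary lines was 0.034 for Dll1, 0.010 for Dll3, 0.028 for Hes1, 0.044 for Notch3 and 0.027 for Notch4, and for Dll3 it was 0.0096 in brain against lung and 0.00070 in lung against primary lines. With quantile normalization again it was 0.019 for Dll1, 0.055 for Notch3 and 0.030 for Notch4 in brain against primary lines. With array weights it was 0.0013 for Notch3 and 0.0071 for Notch4 in brain against primary, 0.039 for Dll3 in brain against lung and 0.028 for Jag2 in lung against primary lines. With a line left out, brain against primary lines ran from -0.10 to 0.16 for Dll1, -0.11 to 0.021 for Dll3, -0.055 to 0.17 for Jag2, -0.077 to 0.097 for Notch3, -0.054 to 0.037 for Notch4 and -0.13 to 0.087 for Hes1. Brain against lung lines ran from -0.033 to 0.20 for Dll1, -0.12 to 0.089 for Dll3, -0.0066 to 0.23 for Jag2, -0.080 to 0.045 for Notch1 and -0.11 to 0.0052 for Notch3. Lung against primary lines ran from -0.21 to 0.044 for Dll1, -0.12 to 0.089 for Dll3, -0.37 to 0.14 for Jag1, -0.16 to 0.052 for Jag2, -0.19 to 0.022 for Notch2 and -0.020 to 0.15 for Notch3.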

Other observations

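Identical values recur between arrays in the deposited table. In 56.9% of the 19938 genes at least 2 of the 9 lines have exactly the same log2 value. Among the members, Notch4 has 1 value in 5 lines, Dll3 in 3, and Notch1 and Notch3 in 2, while Dll1, Dll4, Jag1, Jag2, Notch2 and Hes1 have 9 different values. How this affects the spread estimated for single genes was not tested.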
